A study of Mus musculus with 8 samples.

Results

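The genes described here are 10 integrin subunit genes of macrophages, namely *Itgb3*, *Itgav*, *Itgb5*, *Itgb2*, *Itgam*, *Itgax*, *Itgal*, *Itgb1*, *Itga4* and *Itga6*. They were taken by symbol from a table of 18635 genes in which 22 of the 27 annotated integrin subunit genes have values. The family was chosen by the rise of the normalized count of *Itgb3* between the genotypes, so the values of *Itgb3* between genotypes are a description, without a test. The study asked how loss of PHGDH, the first enzyme of de novo serine synthesis, changes the transcriptome of tumor-educated macrophages (TEMs). These are bone marrow-derived macrophages (BMDMs) that were kept for 24 h in AE17-TCM, a medium conditioned by the murine mesothelioma cell line AE17.

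The control TEMs were *Phgdh* fl/fl (4 samples), and the PHGDH-deficient TEMs were *Phgdh* fl/fl *Cx3cr1*-Cre (4 samples). The marrow came from C57BL/6 littermates aged 6 to 8 weeks. Both genotypes carried the floxed *Phgdh* alleles and both received AE17-TCM, while the Cre recombinase came from 1 *Cx3cr1* allele (cre/+) and was carried by the second group alone. *Cx3cr1*, a chemokine receptor gene, had 1075 ± 94.2 and 660 ± 32.2 normalized counts (SD, n = 4 each). The loss of *Phgdh* and the presence of the Cre allele come together in this design and cannot be told apart. BMDMs without TCM were not analysed here. A normalized count is the number of reads of a gene divided by a size factor for the sample, and the reads on genes lay between 38219563 and 47027420 per sample. Defining markers of macrophages were abundant, with *Adgre1* (136117 and 128439 normalized counts), *Csf1r* (85156 and 84084) and *Cd68* (51766 and 50366), given as means of control and PHGDH-deficient TEMs, although 5 of the 10 markers in the list were lower in PHGDH-deficient TEMs and the other 5 were not called (limma).

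Integrins are receptors of the cell surface made of an alpha and a beta subunit, which bind matrix proteins or ligands on other cells and link them to the actin cytoskeleton. In macrophages, β2 joins αM (CD11b, from *Itgam*), αX (CD11c, from *Itgax*) or αL (CD11a, from *Itgal*) to form the leukocyte integrins for complement fragments and ICAMs. The αv subunit pairs with β3 or β5 to bind vitronectin, osteopontin and the bridging protein MFG-E8 on dying cells, and β1 pairs with α4 or α6 to bind VCAM-1 and fibronectin or laminins.

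The family split in direction. *Itgb3* rose 3.27-fold in mean level. The 9 other members all had a limma adjusted p under 0.05, with 3 higher (*Itgax*, *Itgal*, *Itga4*) and 6 lower (*Itgav*, *Itgb5*, *Itgb2*, *Itgam*, *Itgb1*, *Itga6*) in PHGDH-deficient TEMs. Calls were frequent across the transcriptome, where 41.0% of the 13629 tested genes passed the same threshold (20.8% higher and 20.3% lower). Among the 6283 genes whose mean reached 1000 normalized counts the share was 56.9%, and 8 of the 9 members belong to these. In each of the 9 members the values of both genotypes were fully separated, without overlap, against 36.7% of all tested genes (18.4% higher and 18.2% lower). This share was not computed for the 6283 more abundant genes alone. Most of the differences of the 9 members were small. The median log2 fold change of the 9 was -0.10 and their median absolute log2 fold change 0.19, beside -0.0018 and 0.12 over all tested genes. *Itgax* was the single gene of the 9 beyond 0.5 in absolute log2 fold change, a size reached by 7.23% of tested genes. In bulk RNA, fewer cells of a type and less RNA per cell cannot be told apart, and neither protein nor surface receptor was measured here.

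**Figure D1:**
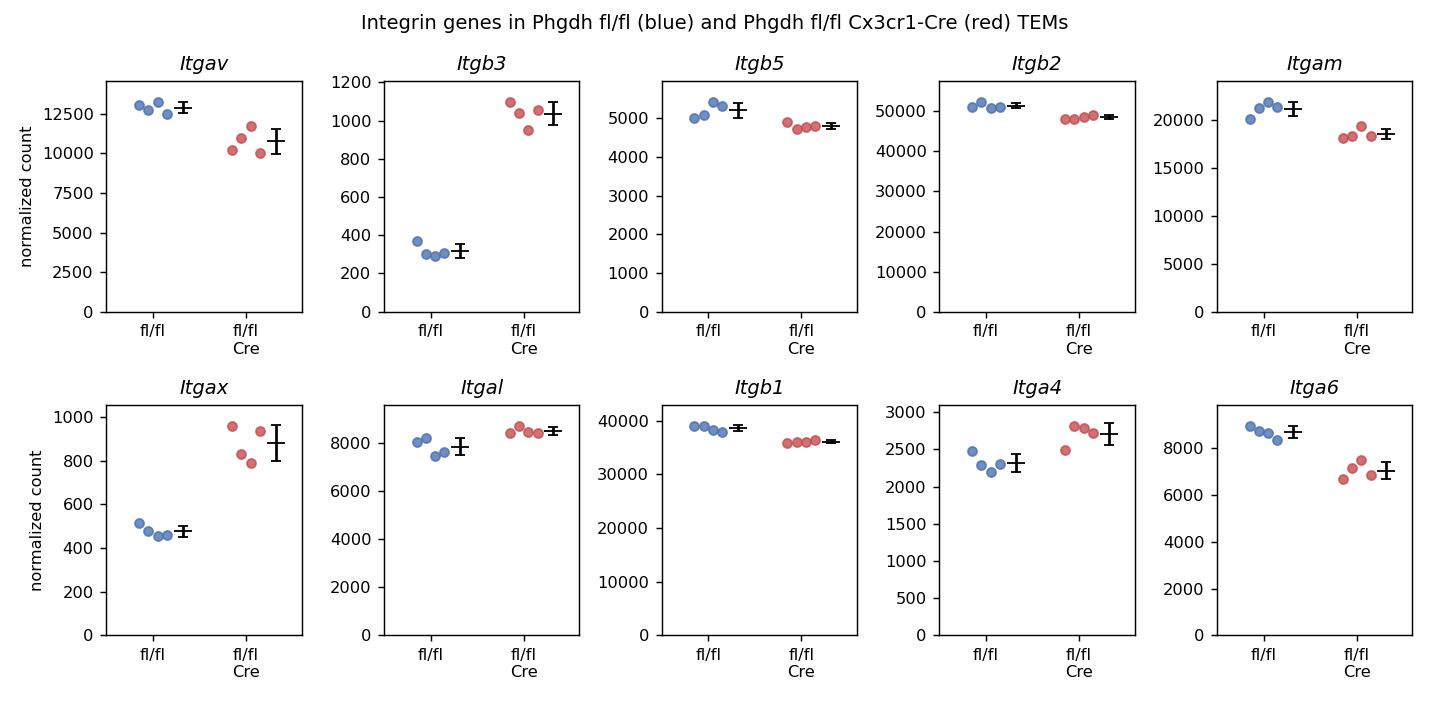
Normalized counts of the 10 integrin genes, with 1 panel per gene and a vertical axis that starts at 0. Points are the 4 samples of control TEMs (blue) and of PHGDH-deficient TEMs (red), in the order of replicates 1 to 4, and the black bar is the mean ± SD. *Itgb3* and *Itgax* show wide gaps between the genotypes, whereas the genotypes lie much closer in the other 8 genes.

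*Itgb3* (ENSMUSG00000020689) lies on the plus strand of mm10 at chr11:104608000-104670476 and encodes β3, a partner of αv. Its normalized counts were 369, 300.1, 292 and 308 in control TEMs and 1097, 1038, 953 and 1056 in PHGDH-deficient TEMs. All samples with the Cre were thus higher than all samples without it, and the groups lay far apart. The means were 317 ± 35.2 and 1036 ± 60.8 (SD, n = 4 each), with a ratio of 3.27 and a log2 fold change of 1.71 (standard error, SE = 0.066). These values rest on 282 to 397 reads per sample without the Cre and 937 to 1086 with it. With any sample left out, the log2 fold change stayed between 1.67 and 1.78. Of all tested genes, 0.279% had a larger absolute log2 fold change.

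*Itgav* and *Itgb5*, described here with *Itgb3* as the αv group, moved the other way. *Itgav* (ENSMUSG00000027087, chr2:83724397-83806916, plus strand) encodes αv. Its normalized counts were 13041, 12741, 13238 and 12491 in control TEMs and 10215, 10994, 11723 and 10048 in PHGDH-deficient TEMs. Every sample with the Cre lay below every sample without it, with replicate 3 the closest. The mean fell from 12878 ± 329 to 10745 ± 771 (SD, n = 4 each), and the log2 fold change was -0.26 (SE = 0.036, limma adjusted p = 4.13e-06). *Itgb5* (ENSMUSG00000022817, chr16:33829665-33949338, plus strand) encodes β5, another partner of αv. It was measured at 5007, 5083, 5425 and 5320 normalized counts in control TEMs and at 4897, 4739, 4767 and 4802 in PHGDH-deficient TEMs. The gap between the groups was narrow, and the log2 fold change was -0.12 (SE = 0.028, limma adjusted p = 0.00168).

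Per length of transcript, β5 mRNA was still more abundant than β3 mRNA in both genotypes. Levels between genes are given in FPKM, computed from the reads recovered from the normalized counts and the exon length. *Itgb3* had 1.24 ± 0.139 FPKM in control TEMs and 4.09 ± 0.233 FPKM in PHGDH-deficient TEMs, while *Itgb5* had 33.8 ± 1.22 and 31.5 ± 0.379 FPKM (SD, n = 4 each). The ratio of *Itgb3* to *Itgb5* per sample lay between 0.0324 and 0.0444 without the Cre and between 0.12 and 0.135 with it. The ratio of *Itgb3* to *Itgav* had a mean of 0.0449 and of 0.177, respectively. These ratios contain the gene that chose the family and were not tested.

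Since β3 is also a known subunit of osteoclasts and, with αIIb, of platelets, the markers of these cells are given beside its rise. Of 8 osteoclast markers, 6 were tested and 3 of these were higher in PHGDH-deficient TEMs. *Atp6v0d2*, a subunit of the proton pump, rose from 1956 to 3081 mean normalized counts (log2 fold change 0.66, limma adjusted p = 3.13e-13). *Acp5*, the tartrate-resistant phosphatase, rose by 0.32 and *Ctsk*, a collagen-degrading protease, by 0.28 on the log2 scale (limma adjusted p = 3.63e-05 and 0.000707). The fusion genes *Dcstamp* and *Ocstamp* and the transcription factor *Nfatc1* were not called, *Oscar* had means of 1.7 and 1.5 normalized counts, and *Calcr* was not analysed here. The summed level of the list lay between 5043 and 5371 normalized counts without the Cre and between 6536 and 6785 with it. Of 8 megakaryocyte and platelet markers, 4 were tested, 2 of which fell (*Pf4* and *Ppbp*, log2 fold changes -0.42 and -0.64, limma adjusted p = 2.24e-10 and 9.01e-06). *Treml1* had 399 and 428 normalized counts and was not called (log2 fold change 0.11, limma adjusted p = 0.208). *Gp9* had means of 2.9 and 1.6, and *Gp1ba*, *Gp1bb* and *Gp6* were not analysed here. The summed level of the 5 markers with values lay between 4448 and 4740 normalized counts without the Cre and between 3467 and 3568 with it. *Itga2b*, which encodes αIIb, had 17.9 and 19.1 normalized counts (log2 fold change 0.085, limma adjusted p = 0.816). The part of these cell types in the rise of *Itgb3* was not tested.

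Over the 8 samples and the 10515 genes whose mean reached 100 normalized counts, the log2 levels most like those of *Itgb3* were those of *Plxna1* (Pearson r = 0.9988), *Plxnd1* (r = 0.9984), *Fam107b* (r = 0.9981), *Mettl7a1* (r = 0.9977) and *Slamf7* (r = 0.9973). *Plxna1* and *Plxnd1* encode plexins, which are receptors for semaphorins. The 8 points share their libraries and fall into 2 genotypes, so each r mainly follows the difference between genotypes and is a description. The log2 fold changes of these 5 genes ranged from 0.11 for *Fam107b* to 0.68 for *Plxna1*, each smaller than the 1.71 of *Itgb3*.

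The leukocyte integrin genes are next described by their shared β2 subunit. *Itgb2* (ENSMUSG00000000290, chr10:77530252-77565708, plus strand) was the most abundant member, also per length. Its normalized counts were 51172, 52316, 50872 and 51136 in control TEMs and 47990, 48183, 48606 and 49147 in PHGDH-deficient TEMs. The groups did not overlap, but the difference was small, with a log2 fold change of -0.08 (SE = 0.021, limma adjusted p = 0.0025). Under quantile normalization it was -0.017 with a limma adjusted p of 0.399.

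The 3 alpha subunits measured here that pair with β2 are encoded on chromosome 7, and *Itgam* and *Itgax* are direct neighbours with 11.1 kb between them. These neighbours moved in opposite directions. *Itgam* (ENSMUSG00000030786, chr7:128062640-128118491, plus strand) had 20108, 21290, 21894 and 21385 normalized counts in control TEMs and 18139, 18328, 19385 and 18380 in PHGDH-deficient TEMs. All samples with the Cre were lower, and the log2 fold change was -0.19 (SE = 0.027, limma adjusted p = 7.03e-06). *Itgam* is itself 1 of the 5 macrophage markers that fell, beside the Fc receptor gene *Fcgr1* (log2 fold change -0.40, limma adjusted p = 7.40e-12), the lipopolysaccharide co-receptor gene *Cd14* (-0.32, 1.94e-10), *Spi1* (-0.21, 3.41e-07) and *Adgre1* (-0.084, 0.00558). *Csf1r*, *Cd68*, *Mertk* and *Lyz2* were not called, with log2 fold changes between -0.040 and 0.020. Without *Itgam*, the list summed to between 1037640 and 1128040 normalized counts in control TEMs and to between 1016360 and 1092650 in PHGDH-deficient TEMs, ranges that overlap. The part of this marker change in the decreases of the members was not tested. *Itgax* (ENSMUSG00000030789, chr7:128129547-128150657, plus strand) had 513, 480.4, 456 and 459 normalized counts in control TEMs and 961, 833, 789 and 938 in PHGDH-deficient TEMs. The lowest sample with the Cre was well above the highest sample without it. The mean rose from 477 ± 26.4 to 880.2 ± 82.3 (SD, n = 4 each), a ratio of 1.84 and a log2 fold change of 0.88 (95% confidence interval 0.75 to 1.01, limma adjusted p = 2.80e-10). After *Itgb3* this was the largest change of the 10 members, and 1.92% of tested genes had a larger absolute log2 fold change.

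*Itgal* (ENSMUSG00000030830, chr7:127296260-127335138, plus strand) lies farther away on the same chromosome. It had 8021, 8206, 7458 and 7619 normalized counts in control TEMs and 8389, 8700, 8438 and 8385 in PHGDH-deficient TEMs. The groups came close to each other without overlapping, and replicate 2 was the highest sample in both genotypes. The log2 fold change was 0.12 (SE = 0.028, limma adjusted p = 0.00202). Of the other tested genes beside these 3 loci, *Cox6a2*, 54.8 kb beyond *Itgax*, rose by 0.33 on the log2 scale (limma adjusted p = 0.0299). *Zfp768*, 7.66 kb beyond *Itgal*, had a log2 fold change of 0.057 (limma adjusted p = 0.335), and *Gm44729* and *Gm45205* were not called (limma adjusted p = 0.595 and 0.947).

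The sequences upstream of *Itgam* and *Itgax* are shown because these neighbours differ in direction. Each covers the 250 bases before the RefSeq start on the plus strand of GRCm38.p6, the assembly of mm10, and is written 5′ to 3′. The first lies at chr7:128062390-128062639 and the second at chr7:128129300-128129549. Capitals mark the letters GAGGAA, a core of sites for the myeloid factor PU.1, or their reverse complement TTCCTC.
Itgam: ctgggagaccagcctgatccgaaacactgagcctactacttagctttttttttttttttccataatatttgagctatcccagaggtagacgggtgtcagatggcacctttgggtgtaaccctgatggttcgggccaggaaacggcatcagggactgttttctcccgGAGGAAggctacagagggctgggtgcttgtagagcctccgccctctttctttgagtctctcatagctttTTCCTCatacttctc
Itgax: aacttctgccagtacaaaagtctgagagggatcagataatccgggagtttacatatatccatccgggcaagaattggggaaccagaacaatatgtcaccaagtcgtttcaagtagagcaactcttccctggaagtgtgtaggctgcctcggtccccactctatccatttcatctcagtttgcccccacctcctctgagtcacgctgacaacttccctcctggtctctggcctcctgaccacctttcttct
The *Itgam* window holds the motif once in each orientation, with first bases at -84 and -15 from the start, and the *Itgax* window holds neither. The same letters, searched on both strands, occur in 23.3% of the 32851 promoter windows of this length in the RefSeq table. Of the 6 members with a window there, 3 hold them (*Itgav*, *Itgam* and *Itgb1*) and 3 do not (*Itgax*, *Itga4* and *Itgb5*). *Itgb3*, *Itgal*, *Itgb2* and *Itga6* had no entry. *Spi1*, which encodes PU.1, fell from 16945 to 14652 mean normalized counts (log2 fold change -0.21, limma adjusted p = 3.41e-07). A match of letters is a description of the window and no record of binding. Other forms of such sites were not searched, and the *Itgax* window does hold the shorter letters ggaa. The part of *Spi1* in the directions of these genes was not tested.

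The make-up of the alpha subunit mRNA that can pair with β2 shifted from *Itgam* towards *Itgax* and *Itgal*. Shares were taken within each sample from reads per kilobase, so that they do not depend on the scaling between samples. The share of *Itgam* was 75.1%, 75.8%, 78.0% and 77.2% in control TEMs and 71.0%, 70.9%, 72.7% and 71.3% in PHGDH-deficient TEMs. The share of *Itgax* was 1.81% ± 0.137 and 3.55% ± 0.387, and that of *Itgal* 21.7% ± 1.19 and 24.98% ± 0.632 (SD, n = 4 each). The differences of -5.07, 1.74 and 3.32 percentage points each had p = 0.0286 in an exact two-sided permutation test over the 70 labelings, also after adjustment over the 3 shares, which add up to 100%. This is the smallest p that 4 samples against 4 allow. For *Itgam* the outcome was already set by the separated counts of the 3 genes given above. The 3 p-values therefore add no independent support to the calls of these genes. The ratio of *Itgb2* to the sum of the 3 alpha subunits per length was 3.06 ± 0.0677 and 3.07 ± 0.0574. *Itgad*, a further partner of β2, was not analysed here.

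**Figure D2:**
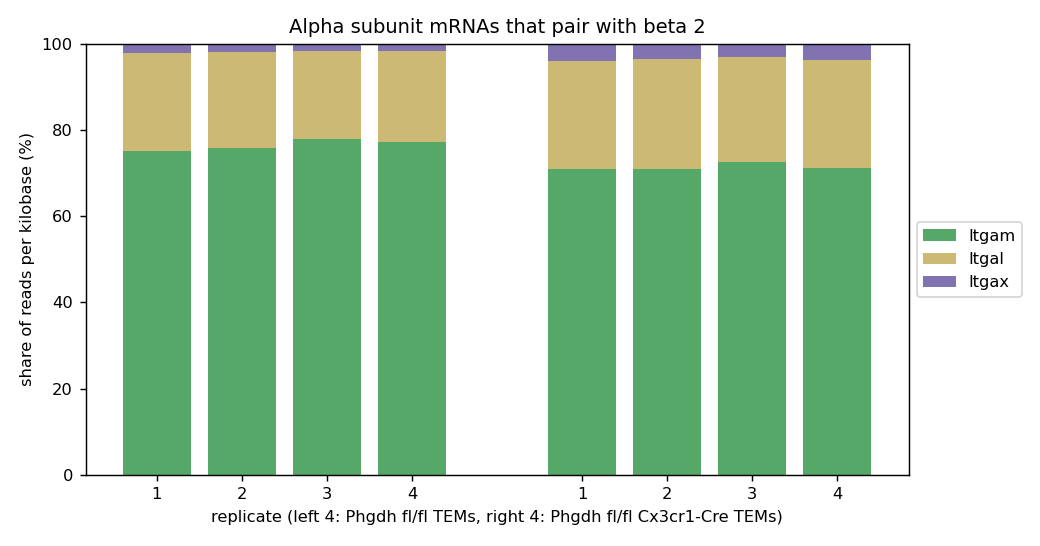
Share of each of *Itgam*, *Itgal* and *Itgax* in the sum of their reads per kilobase, in percent, with 1 stacked bar per sample. The share of *Itgam* (green, from 0) ends lower in the 4 samples of PHGDH-deficient TEMs (70.9% to 72.7%) than in the 4 samples of control TEMs (75.1% to 78.0%), and the band of *Itgax* at the top is wider.

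CD11c is also a marker of dendritic cells. Of the 8 dendritic cell markers, *Itgax* included, 4 were tested and 2 rose. The called genes were *Itgax* itself and *Dpp4*, a surface peptidase, with 12.4 ± 4.2 and 24.98 ± 5.31 normalized counts (SD, n = 4 each, log2 fold change 0.98, limma adjusted p = 0.00797). *Zbtb46*, a transcription factor of conventional dendritic cells, had 16.7 and 27.5 normalized counts (limma adjusted p = 0.0642), and the homing receptor gene *Ccr7* had 33.3 and 42.96 (limma adjusted p = 0.131). *Flt3* was near 0 with a mean of 3.1 in both genotypes, *Clec9a* had means of 0.72 and 3.0, and *Xcr1* and *Siglech* were not analysed here. Without *Itgax*, the list summed to between 56.7 and 89.7 normalized counts in control TEMs and to between 86.6 and 114 in PHGDH-deficient TEMs. For neutrophils, which also carry β2 integrins, *S100a8* and *Mmp8* were the 2 tested of 9 markers and both rose (log2 fold changes 0.23 and 0.28, limma adjusted p = 0.0044 and 1.87e-06). Their sum lay between 2155 and 2299 and between 2609 and 2822 normalized counts, while *Ly6g*, *S100a9*, *Mpo*, *Elane*, *Camp*, *Ltf* and *Ngp* were not analysed here. The part of these cell types in the changes of the β2 group was not tested. Of 7 T and NK cell markers, *Cd4* and *Klrb1c* summed to at most 47.7 normalized counts in any sample, and *Cd3e*, *Cd3g*, *Cd3d*, *Cd8a* and *Ncr1* were not analysed here. Of 7 fibroblast markers, 5 summed to at most 56.4, and *Lum* and *Pdgfra* were not analysed here. Of 7 mesothelial and mesothelioma markers, *Upk3b* reached at most 5.08, and the other 6 (*Msln*, *Wt1*, *Krt8*, *Krt18*, *Krt19* and *Lrrn4*) were not analysed here. Of 5 B cell markers, *Cd79b* fell by 0.63 on the log2 scale (limma adjusted p = 2.93e-05), *Ms4a1* had means of 2.0 and 1.0 normalized counts, and *Cd79a* and *Pax5* were not analysed here.

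The β1 group was mixed in direction. *Itgb1* (ENSMUSG00000025809, chr8:128685654-128733200, plus strand), the common beta subunit of matrix receptors, had 39066, 38969, 38342 and 37898 normalized counts in control TEMs and 35818, 36034, 36037 and 36403 in PHGDH-deficient TEMs. Samples of a genotype were close to each other and the groups were apart. The log2 fold change was -0.10 (SE = 0.020, limma adjusted p = 0.000635), but under quantile normalization it was -0.015 with a limma adjusted p of 0.485.

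*Itga4* (ENSMUSG00000027009, chr2:79255426-79333123, plus strand) encodes α4, the receptor subunit for VCAM-1. Its normalized counts were 2481, 2293, 2201 and 2298 in control TEMs and 2489, 2818, 2784 and 2724 in PHGDH-deficient TEMs. Replicate 1 of each genotype nearly met, and the other 3 samples with the Cre lay clearly higher. The log2 fold change was 0.22 (SE = 0.040, limma adjusted p = 0.00011). It was 0.12 (limma adjusted p = 0.125) with replicates 1 and 4 only and 0.32 (limma adjusted p = 1.45e-06) with replicates 2 and 3 only, pairs of numbers that lay apart on the second principal component. With replicates 1 and 4 only, *Itgb5*, *Itgb2*, *Itgal* and *Itgb1* were not called either (limma adjusted p between 0.0658 and 0.149). *Itga6* (ENSMUSG00000027111, chr2:71745616-71858416, plus strand) encodes α6, a laminin receptor subunit. It had 8955, 8726, 8648 and 8336 normalized counts in control TEMs and 6659, 7149, 7506 and 6830.2 in PHGDH-deficient TEMs. All samples with the Cre were lower, replicate 3 being the highest of them. Among the members that fell, *Itga6* had the largest log2 fold change, -0.30 (SE = 0.032, limma adjusted p = 1.36e-07).

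Reads of some of these genes may be shared with overlapping genes or left out of the count. *Itga4* shares 1124 exon bases with *Cerkl* on the opposite strand (mean of 100.5 normalized counts), *Itgav* shares 634 with *Gm13684* on the opposite strand, and *Itgam* shares 3450 with *Gm49368* on the same strand (mean of 5.77 normalized counts). The libraries were made with a directional kit, and the strand setting of the counting is not given in the sources used here. Strand cannot separate *Itgam* from *Gm49368*, and how reads on shared exons were counted was not examined. The level per length and the share of *Itgam* were computed with all of its 5024 exon bases.

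**Figure D3:**
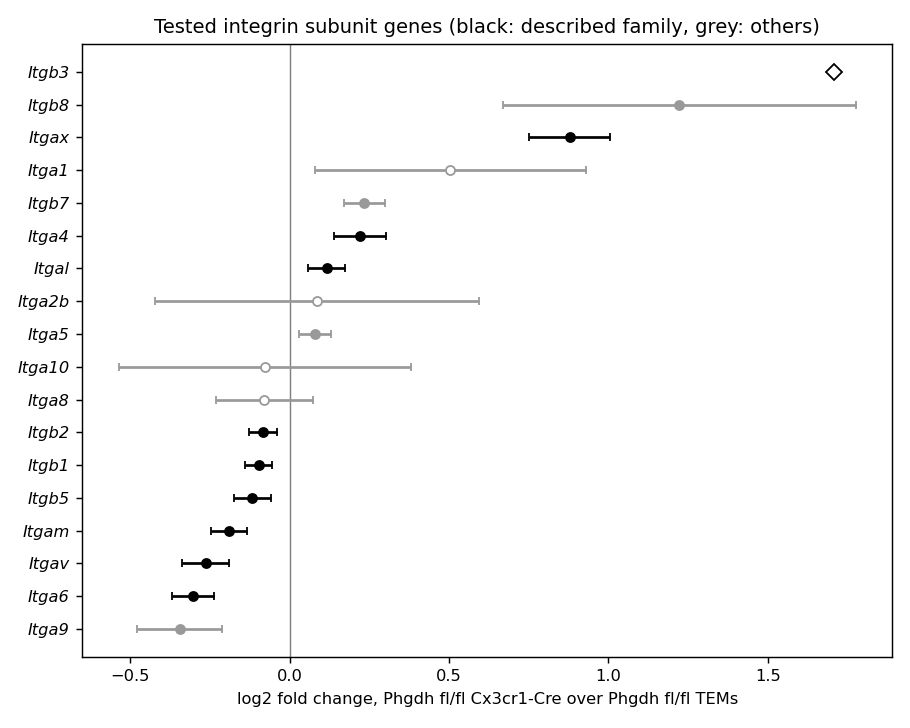
Log2 fold change of PHGDH-deficient over control TEMs for the 10 members (black) and the 8 other tested integrin subunit genes (grey), with 95% confidence intervals from limma. Filled circles have an adjusted p under 0.05, open circles do not, and the open diamond is *Itgb3*, given without interval. *Itgb3*, *Itgb8* and *Itgax* stand to the right of all others, and 6 members lie left of 0.

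In order of level per length, *Itgb2* led in both genotypes with 388 and 370.4 FPKM, before *Itgb1* (218 and 206), *Itgam* (97.2 and 86.1) and *Itgb5* (33.8 and 31.5), given for control and PHGDH-deficient TEMs. *Itgav* (27.7 ± 0.703 FPKM) and *Itgal* (27.5 ± 1.26 FPKM) overlapped in control TEMs, followed by *Itga6* (22.2), *Itga4* (3.83), *Itgax* (2.29) and *Itgb3* (1.24), each apart from the next. With the Cre, *Itgal* (30.1 ± 0.591 FPKM) stood above *Itgav* (23.3 ± 1.72 FPKM) with no overlap, and *Itga6* had 18.2 FPKM. At the lower end *Itga4* (4.51 ± 0.258), *Itgax* (4.27 ± 0.39) and *Itgb3* (4.09 ± 0.233 FPKM, SD, n = 4 each) overlapped in their ranges. The gene order thus differed between the genotypes at *Itgav* and *Itgal*, and 3 low genes that had been apart came to lie together.

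**Figure D4:**
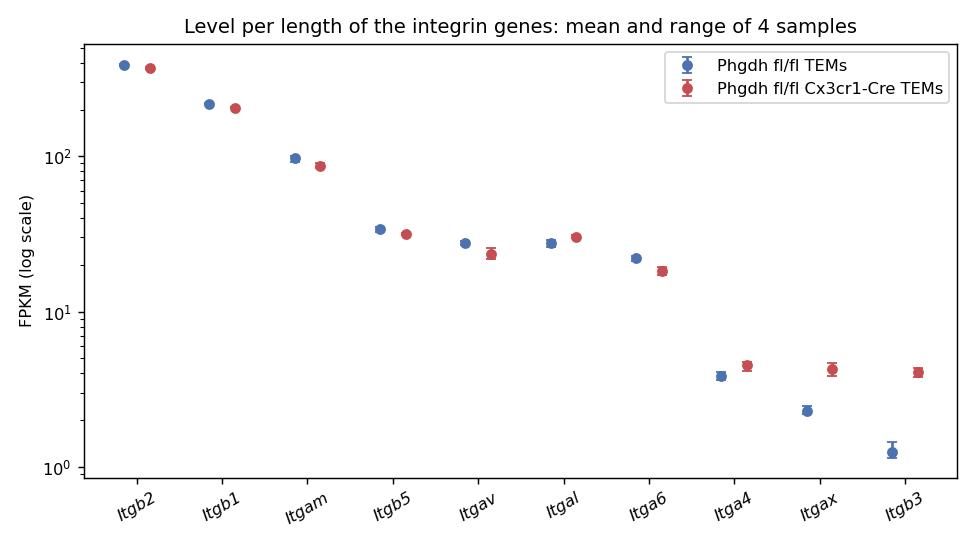
Level per length of the 10 integrin genes in FPKM on a log axis, in the order of control TEMs. Points are means and bars the range of 4 samples, in blue for control TEMs and in red for PHGDH-deficient TEMs. *Itgb2* is highest with 388 and 370.4 FPKM, and the red points of *Itga4*, *Itgax* and *Itgb3* lie side by side between 4.09 and 4.51 FPKM.

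Of 16 other integrin subunit genes, 8 passed the filter on low values, of which 3 rose and 1 fell (4 of 8 called, against 41.0% of all tested genes, median log2 fold change 0.082). *Itgb8*, whose product pairs with αv to activate latent TGF-β, had 25.1, 20.2, 9.3 and 24.8 normalized counts in control TEMs and 33.8, 47.8, 51.8 and 47.7 in PHGDH-deficient TEMs. The groups did not overlap, but all values rest on 9 to 51 reads. The log2 fold change was 1.22 (SE = 0.27, limma adjusted p = 0.000831). *Itgb7*, a partner of α4, rose from 1843 ± 22.7 to 2169 ± 52.1 (SD, n = 4 each, log2 fold change 0.23, limma adjusted p = 2.27e-06). *Itga5*, the fibronectin receptor subunit, rose by 0.08 on the log2 scale (limma adjusted p = 0.0105). *Itga9*, which lies 1.0 Mb from *Cx3cr1* on chromosome 9, fell from 589 ± 29.6 to 465 ± 44.8 (log2 fold change -0.34, limma adjusted p = 0.000179). *Itga1* (0.50), *Itga2b* (0.085), *Itga8* (-0.079) and *Itga10* (-0.076 on the log2 scale) did not pass, with limma adjusted p between 0.0536 and 0.816. *Itga3*, *Itga7*, *Itgae* and *Itgb4* had means of at most 5.2 normalized counts and were not tested, and *Itga2*, *Itga11*, *Itgad* and *Itgb6* were not analysed here.

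Among 36 integrin ligands and counter-receptors, 19 were tested, 6 rose and 8 fell (73.7% called, median log2 fold change 0.024). Of all tested genes 41.0% were called, and 56.9% of those whose mean reached 1000, a level that part of this list reached. Without replicate 3 of control TEMs, 9 in place of 14 ligands and counter-receptors were called. *Mfge8*, the bridge between dying cells and αv integrins, had 6648, 6629, 6425 and 6736 normalized counts without the Cre and 10324, 9639, 9391 and 10233 with it. All samples with the Cre were higher, with a log2 fold change of 0.58 (limma adjusted p = 1.52e-12). *Vwf*, a platelet-binding glycoprotein that is also in the list of endothelial markers, rose by 0.57 (limma adjusted p = 1.43e-10). *C3*, the source of the ligand of αMβ2 and αXβ2, rose from 28301 to 36427 (log2 fold change 0.36, limma adjusted p = 4.42e-10). The largest decreases were those of *Tgfb3*, a growth factor whose latent form binds αv integrins (-0.35, limma adjusted p = 0.0405), *Icam2*, a ligand of αLβ2 (-0.29, 0.0193), and the disintegrin *Adam15* (-0.28, 2.11e-09). Osteopontin, from *Spp1*, was the most abundant ligand mRNA, also per length, with 622567 and 633006 normalized counts, and its log2 fold change of 0.024 was not called (limma adjusted p = 0.632). Of 5 endothelial markers 3 were tested, and *Vwf* and *Kdr* (log2 fold change 0.31, limma adjusted p = 0.00014) rose. *Cdh5* had 11.6 and 8.4 normalized counts and was not called (log2 fold change -0.31, limma adjusted p = 0.616). *Tek* and *Emcn* were not analysed here. The sum of the 3 tested markers lay between 2137 and 2356 and between 3006 and 3271 normalized counts, and its part in the result was not tested.

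The list of 27 activation adaptors includes genes that bind integrin tails or control Rap1. Of the 27, 23 were tested, 4 rose and 12 fell (69.6% called, against 41.0% of all tested genes and 56.9% of those whose mean reached 1000, median log2 fold change -0.070). The list was not split by whether a gene promotes or restrains activation, so its counts and median give no direction of activation. *Rapgef1*, an exchange factor for Rap1, rose by 0.24 (limma adjusted p = 2.42e-07), *Parvg*, the parvin of blood cells, by 0.20 (0.000383) and *Itgb1bp1*, a binder of the β1 tail, by 0.11 (0.0185) on the log2 scale. *Dok2*, an adaptor of tyrosine kinase signalling, had 2552, 2667, 2587 and 2468 normalized counts without the Cre and 1721, 1836, 1832 and 1721 with it. This was the lowest log2 fold change of the list, -0.53 (limma adjusted p = 7.45e-11). *Rasgrp2*, which activates Rap1, followed with -0.49 (limma adjusted p = 3.88e-05) and *Cytip*, which binds cytohesin 1, with -0.33 (0.00276), the samples of *Cytip* overlapping between genotypes. The 2 main activators of the integrin tail differed in sign, with 0.078 for talin 1 (*Tln1*, limma adjusted p = 0.0178, groups overlapping) and -0.12 for kindlin 3 (*Fermt3*, 0.000105). Both were chosen after their values were seen.

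Of 34 genes of signalling and actin linkage, 32 were tested, 9 rose and 15 fell (24 of 32 called, against 41.0% of all tested genes and 56.9% of those whose mean reached 1000, median log2 fold change -0.063). *Src*, a kinase that acts with β3, had 383, 356, 355 and 385 normalized counts without the Cre and 575, 557, 530 and 536 with it. It rose by 0.57 on the log2 scale (limma adjusted p = 6.01e-08), the largest change of the list. *Syk*, the kinase downstream of leukocyte integrins, rose by 0.18 (limma adjusted p = 2.02e-06) and *Tns1*, an actin-binding tensin, by 0.16 (0.0338). The decreases were led by the docking protein *Nedd9* (-0.33, limma adjusted p = 0.000113), the actin crosslinker *Actn1* (-0.28, 1.44e-08) and the focal adhesion protein *Zyx* (-0.27, 2.42e-07).

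All 19 integrin-associated membrane proteins were tested, of which 4 rose and 10 fell (73.7% called, median log2 fold change -0.099). All of them had means above 1000 normalized counts, where 56.9% of tested genes were called, against 41.0% of all. The tetraspanin *Cd82* rose by 0.35 (limma adjusted p = 9.28e-08), *Lgals3*, which encodes galectin 3, by 0.089 (0.0113) and the tetraspanin *Cd53* by 0.084 (0.00406) on the log2 scale. *Cd36*, a scavenger receptor that works with αv integrins in the uptake of dying cells, decreased from 180074 ± 3209 to a normalized count of 131904 ± 3001 (SD, n = 4 each, log2 fold change -0.45, limma adjusted p = 5.57e-12). The urokinase receptor *Plaur* fell by 0.27 (limma adjusted p = 3.79e-07) and *Lgals1*, which encodes galectin 1, by 0.25 (3.44e-08).

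**Figure D5:**
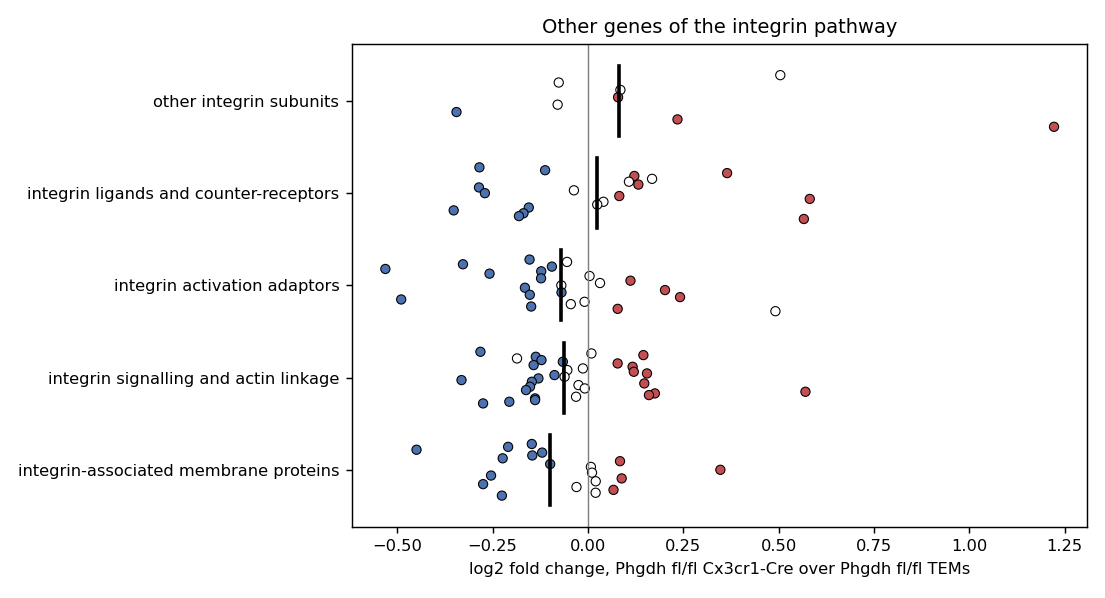
Log2 fold change of PHGDH-deficient over control TEMs for the tested genes of 5 lists of the integrin pathway, with 1 point per gene (red higher, blue lower, white not called at an adjusted p of 0.05 in limma). The black bar is the median of the list. The medians lie between -0.099 and 0.082, and each list holds genes on both sides of 0.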

How the data were processed

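The authors mapped single-end reads to mm10 with TopHat2, counted them per gene with HTSeq 0.6 and compared genotypes with DESeq2. The deposited sample values are a signal, namely read counts over a size factor per sample, and the mean per gene is in the same unit. The deposited log2 fold changes, standard errors, Wald scores and p-values are the authors' own comparison and were not used.

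Whole reads were recovered from the values. Genotypes were compared with limma 3.58.1 (R 4.3.3, eBayes trend) on log2(normalized count + 1), which understates changes of low genes, for 13629 genes with a mean of at least 10, two-sided, with Benjamini-Hochberg adjustment over all of them and a threshold of 0.05. The count test of edgeR 4.0.16 on the recovered reads called 5608 genes, against 5594. DESeq2 1.42.0 on the same reads called 5066 genes, and limma without the trend called 4930. On log2(FPKM + 1), limma called 4813 of 10321 tested genes. Exon lengths and positions came from GENCODE M21, where 18629 of 18635 genes were found. Shares were tested in scipy 1.17.1. The main limma fit, edgeR and DESeq2 were also run on simulated counts with the same dispersion for every gene, and the outcome is not given here. The other alternatives were not run on simulated counts. The labels number the 4 samples of a genotype as replicates, and the paper calls them biologically independent. Pairs within a genotype differed by more than sampling noise (chi-square per gene of 1.79 to 6.2). The highest values, 5.4 to 6.2, were those of the pairs with replicate 1 of control TEMs, against 2.49 to 3.83 for the other control pairs. On the first principal component this sample lay at -14.02, and the other control samples between -21.25 and -20.04.

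The members and lists were chosen with earlier results of these data known. Named are the 10 members, *Phgdh*, *Cx3cr1*, each tested subunit, up to 3 highest and 3 lowest called genes per list, the 5 genes most like *Itgb3*, the neighbours on chromosome 7, and markers. Genes outside this rule (*Spp1*, *Tln1*, *Fermt3*) were chosen after their values were seen. The targeted gene *Phgdh* had 117 ± 9.82 and 27.1 ± 9.39 normalized counts (SD, n = 4 each). Alternatives were another pseudocount, filter, scaling or test, a replicate block, and leaving samples out.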

Additional observations from a re-analysis of the deposited data

Results flagged for a closer look

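Among the 20 groups of 4 samples formed by the 10 members and 2 genotypes, 1 value stood apart from the rest of its group. The normalized count of *Itgal* in replicate 2 of *Phgdh* fl/fl *Cx3cr1*-Cre TEMs was 8699.6, and its gap to the nearest sample took 0.833 of the range of the group, just above the critical value of Dixon's test at 95%. Chance gives such a value in about 1 of 20 groups. Without this sample the log2 fold change of *Itgal* was 0.10 (limma adjusted p = 0.0115).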

How the results depend on the processing

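The 9 members other than *Itgb3* gave 180 values under 20 alternatives, of which 173 kept direction and call, 7 lost the call and 0 reversed. Quantile normalization ended the calls of *Itgb2* and *Itgb1*. On the second principal component replicates 1 and 4 of both genotypes lay apart from replicates 2 and 3, so each pair of numbers was fitted alone, a choice made after seeing the data. With replicates 1 and 4 only, 2925 genes and 4 members were called, against 5594 and 9, and *Itgb5*, *Itgb2*, *Itgal*, *Itgb1* and *Itga4* did not pass. With replicates 2 and 3 only, at the same number of samples, 4513 genes and all 9 members were called. The log2 fold change of *Itga4* was 0.12 and 0.32 in these fits. Leaving out 1 sample gave 4966 to 5917 called genes, against 5594 with all samples, and the 5917 came without replicate 1 of control TEMs. Each such fit kept 9 called members and gave 9 to 13 called ligands, against 14 with all samples. The cause was not tested. Shares with a sample left out carry no test, since 3 samples against 4 cannot reach the threshold. On log2(FPKM + 1) the log2 fold change of *Itgb3* was 1.19. A replicate block called 5597 genes and 9 members. Samples of the same number correlated in their deviations by 0.0628 to 0.126, and not every sample correlated best with its own number, so the numbers were not taken as pairs. Between genotypes, all correlations within replicates 1 and 4 or within replicates 2 and 3 were positive (0.0484 to 0.135). Those across these pairs of numbers were all negative (-0.124 to -0.0356). The main fit held genotype alone and leaves this shared split in its residual. For low genes such as *Itgb8*, counting error limits the values.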
